A study of Mus musculus with 12 samples.

Results

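The 10 heat shock and chaperone genes described here, Hspa1a, Hspa1b, Hspa8, Hspa5, Hsph1, Dnajb1, Hsp90aa1, Hsp90ab1, Hspd1 and Hspe1, were taken by gene symbol from a table of 24454 genes. All 10 were found once each, and all 10 passed the filter on low values that left 11476 genes for testing. Leukemic blasts in this model of acute myeloid leukemia (AML) came from fetal liver cells of wildtype (WT) or STAT3β-deficient (Δβ) mice. Δβ animals lack the shorter splice isoform of the transcription factor STAT3 in every cell and keep STAT3α. Both genotypes were transduced with a retrovirus that carries the fusion oncogene MLL-AF9 and the fluorescent protein Venus, and were injected into young adult male mice of the strain NOD.Cg-Prkdc scid Il2rg tm1Wjl/SzJ, known as NSG, which lack T, B and natural killer cells but keep their own myeloid cells and stroma. Venus+ cells were sorted from the spleen (SP) and bone marrow (BM) of diseased animals, which gave 4 groups of 3 libraries, WT SP, Δβ SP, WT BM and Δβ BM. No group received a drug or a heat treatment, and how many separately transduced cultures stand behind a group is not stated in the sources used here.

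Chaperones bind unfolded proteins and help them reach or keep their native shape. HSP70 proteins bind short exposed stretches of a client, J proteins such as DNAJB1 deliver the client and trigger ATP hydrolysis, and nucleotide exchange factors such as HSPH1 release it. HSP90 takes over kinases, steroid receptors and other signaling proteins late in their folding, while HSPD1 and HSPE1 form the chamber and lid of the mitochondrial chaperonin. Heat, oxidation and handling of cells release heat shock factor 1 (HSF1), which binds arrays of inverted GAA units called heat shock elements (HSEs) and switches on the inducible members within minutes. The endoplasmic reticulum (ER) member Hspa5 answers instead to the unfolded protein response, through the ER stress element.

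Hspa1a (Entrez gene 193740, chr17:34969190-34972156, minus strand) and Hspa1b (Entrez gene 15511, chr17:34956436-34959238, minus strand) encode the stress-inducible HSP70 and are near-identical copies on chromosome 17 of GRCm38. Their upstream sequences are shown because the pair moved most between libraries, and because they show how alike the copies are. The 250 bases before each RefSeq start (GRCm38.p6, chr17:34972157-34972406 and chr17:34959239-34959488, both minus strand) read as follows, with a tail-to-tail HSE pair in capitals.
Hspa1a: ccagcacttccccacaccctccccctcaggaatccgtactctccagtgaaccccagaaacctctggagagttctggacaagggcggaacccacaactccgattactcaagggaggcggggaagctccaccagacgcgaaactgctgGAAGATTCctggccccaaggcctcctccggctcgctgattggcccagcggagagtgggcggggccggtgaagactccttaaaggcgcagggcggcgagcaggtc
Hspa1b: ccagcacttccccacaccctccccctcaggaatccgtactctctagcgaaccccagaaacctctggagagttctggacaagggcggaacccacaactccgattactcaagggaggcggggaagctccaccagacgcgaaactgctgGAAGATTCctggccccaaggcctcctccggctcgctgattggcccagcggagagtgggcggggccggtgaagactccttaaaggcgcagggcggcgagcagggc
The sequences matched at 98.8% of positions and differed by C44T, T47C and T249G, each written as the Hspa1a base, the position counted from 1 at the first printed base, and the Hspa1b base. The likeness continued into the transcripts, where 63.8% of the 31-base windows of Hspa1a were also present in Hspa1b. How reads that match both genes were assigned is not stated in the sources used here, so the split between the copies is uncertain.

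A window of 300 bases, 250 before and 50 after the start, was available from RefSeq for 7 of the 10 members, and none was used for Hspa8, Hsp90aa1 and Hsp90ab1. An HSE pair, spelled GAANNTTC or TTCNNGAA and searched on both strands, was present in 5 of the 7 members and in 15.1% of all 32851 windows. The 7 members had 10 windows, so the first count is per gene and the second per window. The 5 are not separate sites, since Hspa1a and Hspa1b are near-identical copies and Hspd1 and Hspe1 share a region. A run of 3 alternating units, which is such a pair with a further inverted unit after 2 bases of any kind, was present in Hspd1, Hspe1 and Hsph1 and in 0.603% of windows. These runs contain the pair motif, so the counts overlap. Hspd1 and Hspe1 are transcribed in opposite directions from a shared region and hold the same run of 4 alternating units at chr1:55088059-55088076, which 5 windows of all 32851 held. The ER stress element, searched on either strand as CCAAT and CCACG with 9 bases of any kind between them, was present in Hspa5 and in 0.119% of windows. The run of 4 units of Hspe1, the run of 3 units of Hsph1, which lies just downstream of the start, and the ER stress element of Hspa5 are shown because few windows hold these motifs. Each stands in a stretch of 30 bases with the matched letters in capitals (Hspe1 chr1:55088053-55088082, plus strand, Hsph1 chr5:149636279-149636308, minus strand, and Hspa5 chr2:34772020-34772049, plus strand; RefSeq, GRCm38.p6).
Hspe1: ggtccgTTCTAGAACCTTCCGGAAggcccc
Hsph1: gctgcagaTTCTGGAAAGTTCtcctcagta
Hspa5: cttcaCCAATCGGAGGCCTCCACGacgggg
These matches describe the letters in the windows, and binding of HSF1 or of ER stress factors was not measured.

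Library depth was 9001051 to 13859727 reads on genes, and the values below are normalized counts, which are reads divided by 1 size factor per library. The 8 AML blast markers, among them Kit, Mpo, Hoxa9 and Meis1, were present in every group, at uneven levels. Mpo measured 5947, 5256 and 40587 in WT SP and 53210, 25775 and 30744 in Δβ SP. Itgam measured 26293, 21981 and 10941 in WT SP and 8530, 7855 and 10473 in Δβ SP. In SP, 3 of the 8 had estimates higher in Δβ. Of the 8, limma called 0 and DESeq2 1 (lower), against 0.105% and 3.98% of tested genes. Of the erythroid markers, Hba-a1, Hba-a2, Hbb-bs and Hbb-bt were listed at 0 in all groups. The 8 red pulp macrophage markers had a summed level of 5112 to 7994 normalized counts in WT BM, above the 3712 to 4755 of Δβ BM. Nearly all of this sum came from the 2 that passed the filter on low values, Vcam1 and Adgre1. Vcam1 averaged 4384 ± 1334 in WT BM and 1686 ± 443 in Δβ BM, and Adgre1 2563 ± 607 and 2669 ± 229 (mean ± SD). In the spleen the sums were 2683 to 4681 for WT and 2871 to 4568 for Δβ blasts. Spic and Timd4 of this list were at 0 in both BM groups, and the part of these levels in the results was not tested. The ribosomal RNA gene Rn45s took 2.48% and 2.41% of counts in WT SP 2 and WT SP 3, against at most 0.725% in the other 10 libraries. In SP, Stat3 averaged 3690 ± 727 normalized counts in WT and 2936 ± 283 in Δβ blasts, and in BM 2955 ± 243 and 2781 ± 440 (mean ± SD, n = 3 each). Both isoforms count toward Stat3, so this level does not check the genotype.

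Divided by the length of the merged exons, the members covered a wide range of levels. Hsp90ab1 was highest at 7780 normalized counts per kb, averaged over the 12 libraries, followed by Hspa5 at 3681 and Hspa8 at 1065. Hspd1 at 544, Hsp90aa1 at 470 and Dnajb1 at 387 per kb formed a middle range. Hspa1b at 240, Hspa1a at 159, Hspe1 at 136 and Hsph1 at 99.0 per kb were lowest. Of the neighbors in this order, Hspa5 and Hspa8 had ranges over the libraries that did not overlap, and all other neighbors overlapped. Within libraries, Hsp90ab1 still lay above Hspa5 and Hspa8 above Hspd1 in each of the 12. The remaining neighbors changed places between libraries, so that their order is not firm. On this per-length scale the constitutive forms lay above the inducible forms in each of the 12 libraries, Hspa8 above both Hspa1 genes and Hsp90ab1 above Hsp90aa1, with an Hsp90ab1 to Hsp90aa1 ratio per kb of 10.7 in WT SP 3 to 24.1 in WT SP 1.

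**Figure D1:**
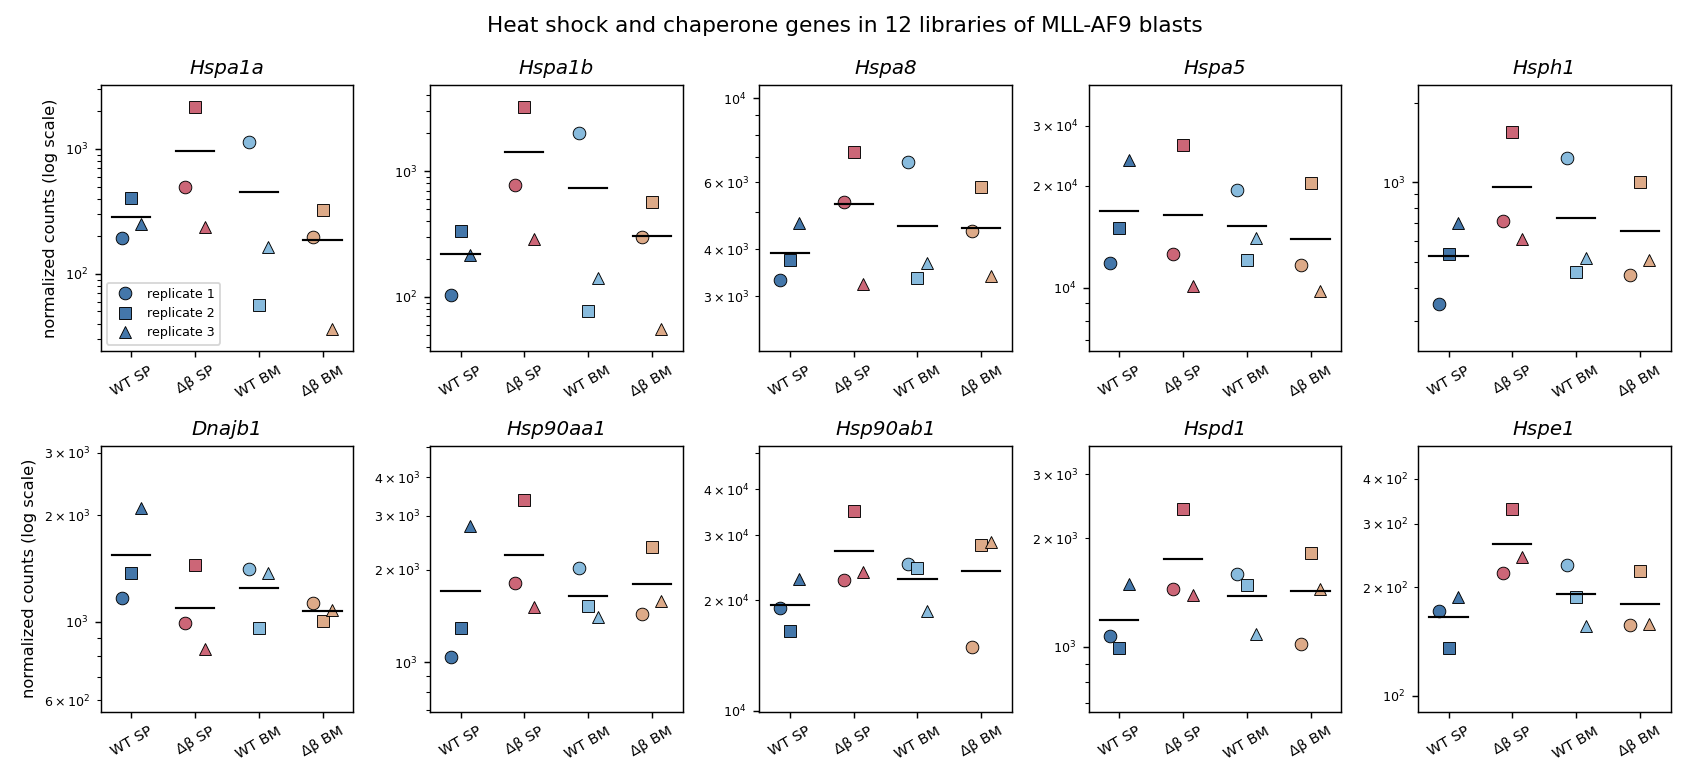
Normalized counts (log scale) of each of the 10 genes in the 12 libraries, by group, with the symbol giving the replicate number and the bar the group mean. Hspa1a and Hspa1b spread 59.8-fold and 57.6-fold, with Δβ SP 2 and WT BM 1 at the top, while Hspe1 ranged from 136 to 329.

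The inducible HSP70 genes showed the widest spread, and most of it lay between libraries of 1 group. Hspa1a measured 194, 405 and 253 normalized counts in WT SP 1 to 3 and 496, 2169 and 236 in Δβ SP 1 to 3. In BM it measured 1143, 56.3 and 165 in WT and 196, 325 and 36.3 in Δβ. A single library stood far above the others in Δβ SP and in WT BM, and all groups overlapped. The highest and lowest libraries, Δβ SP 2 and Δβ BM 3, were 59.8-fold apart.

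Hspa1b behaved alike, with 104, 336 and 214 normalized counts in WT SP and 780, 3220 and 287 in Δβ SP. The BM values were 1989, 77.7 and 141 in WT and 300.1, 564 and 55.9 in Δβ. Over the 12 libraries the log2 values of the pair had a Pearson r of 0.95, the highest r of either gene with any tested gene, although the copies share sequence and libraries. Hspa1b was 2.19 ± 1.26 log2 units higher in Δβ SP than in WT SP (limma estimate ± SE, n = 3 against 3, 95% confidence interval -0.58 to 4.96), the largest estimate of the 10 in this comparison, with a Benjamini-Hochberg adjusted p of 0.414. Without Δβ SP 2 and WT BM 1 the estimate was 1.27. For Hspa1a the SP difference was 1.22 ± 1.13 with an interval of -1.27 to 3.72 and a limma adjusted p of 0.592, and 0.34 without those 2 libraries.

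The share of the pair's reads that was assigned to Hspa1a was not constant. It was 65.1% in WT SP 1 (95% Wilson interval 59.2 to 70.7, 261 reads), 54.6% in WT SP 2 and 54.1% in WT SP 3, against 38.9%, 40.2% and 45.1% in Δβ SP 1 to 3. The SP groups did not overlap in this share. In BM, WT libraries covered 36.5% in WT BM 1 (34.8 to 38.2, 3157 reads), 42.0% in WT BM 2 and 53.9% in WT BM 3, and Δβ libraries lay between 36.5% and 39.5%, at the lower end of the WT range. These intervals cover counting error only, and the comparison was chosen after the values were seen.

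Hspa8, the constitutive cytosolic HSP70 (Entrez gene 15481, chr9:40800984-40810087), measured 3312, 3738 and 4672 in WT SP and 5315, 7217 and 3236 in Δβ SP. The BM libraries measured 6767, 3350 and 3677 in WT and 4464, 5814 and 3390 in Δβ. Δβ SP 2 and WT BM 1 again led their groups, at a far smaller distance, and 44.8% of its 31-base windows occur in other genes, mostly the pseudogene Gm15459. The SP difference of 0.37 ± 0.33 and the BM difference of 0.03 ± 0.33 log2 units were within the spread of the libraries. The SP difference was 0.10 without Δβ SP 2 and 0.50 without WT SP 3 (limma adjusted p of 0.358 in the latter).

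Hspa5, the ER HSP70 known as BiP (Entrez gene 14828, chr2:34771970-34777547), measured 11823, 14961 and 23745 in WT SP and 12534, 26409 and 10097 in Δβ SP. In BM it measured 19440, 12038 and 14045 in WT and 11654, 20308 and 9772 in Δβ. Its group means lay between 13911 ± 5619 in Δβ BM and 16843 ± 6180 in WT SP, and the genotype differences were -0.11 ± 0.40 in SP and -0.17 ± 0.40 in BM. The 95% intervals, -0.99 to 0.77 and -1.05 to 0.71, still allow a change of either sign. Without Δβ SP 2 the SP difference was -0.52 (limma adjusted p of 0.711), and without WT SP 3 it was 0.17 (limma adjusted p of 0.802).

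Hsph1, an HSP110 exchange factor (Entrez gene 15505, chr5:149614287-149636376), measured 346, 536 and 703 in WT SP and 714, 1555 and 612 in Δβ SP. The BM values were 1233, 457 and 517 in WT and 448, 1007 and 508 in Δβ. The SP groups overlapped only through WT SP 3 and Δβ SP 3, and the difference was 0.79 ± 0.47 with a limma adjusted p of 0.430. Without Δβ SP 2 it was 0.38 (limma adjusted p of 0.826), and without WT SP 3 it was 1.03 (limma adjusted p of 0.188). No 31-base window of Hsph1 occurs in another gene, so its values carry no such doubt about assignment.

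Dnajb1, the HSP40 cochaperone that is itself stress-inducible (Entrez gene 81489, chr8:83608193-83612653), was the exception to the library pattern. It measured 1169, 1377 and 2095 in WT SP and 994, 1443 and 836 in Δβ SP, so its highest library was WT SP 3 and not Δβ SP 2. The BM libraries measured 1406, 960 and 1374 in WT and 1133, 1006 and 1077 in Δβ. The estimates were below 0 in both organs, -0.50 ± 0.25 in SP and -0.20 ± 0.25 in BM, with limma adjusted p of 0.368 and 1. Immediate early genes, which respond to handling and to growth signals within minutes, had their highest levels in the same group. All 14 of that list had lower estimates in Δβ SP than in WT SP, 12 at an unadjusted p under 0.05, against 8.96% of tested genes. After adjustment limma and edgeR called 0 of the 14, against 0.105% and 0.0349% of tested genes. DESeq2 called 9, all lower, against 3.98% of tested genes in either direction. Their levels summed to between 85003 and 102319 in WT SP and to between 15362 and 47886 in Δβ SP. The BM sums were 16889 to 74251 for WT and 18615 to 43012 for Δβ. Their part in the Dnajb1 values was not tested.

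The HSP90 genes spread less than the Hspa1 pair. Hsp90ab1 (Entrez gene 15516, chr17:45567775-45573271), the constitutive form, measured 19034, 16459 and 22793 in WT SP and 22706, 34982 and 23799 in Δβ SP. In BM it measured 25051, 24485 and 18721 in WT and 14945, 28238 and 28762 in Δβ. The SP groups met at WT SP 3 and Δβ SP 1, and the difference was 0.47 ± 0.28 (95% interval -0.15 to 1.08) with a limma adjusted p of 0.428. Without Δβ SP 2 it was 0.27, and without WT SP 3 it was 0.59 (limma adjusted p of 0.198). Other genes, led by Gm6368, hold 13.2% of the 31-base windows of Hsp90ab1.

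Hsp90aa1 (Entrez gene 15519, chr12:110690605-110702728), the inducible form, measured 1037, 1295 and 2782 in WT SP and 1814, 3376 and 1515 in Δβ SP. The BM values were 2019, 1524 and 1399 in WT and 1438, 2367 and 1582 in Δβ. The SP difference was 0.44 ± 0.38 with a limma adjusted p of 0.569. Without WT SP 3, the highest WT library, it was 0.86 with a limma adjusted p of 0.0937, and without Δβ SP 2 it was 0.10 with an adjusted p of 0.948. Other genes, mainly the pseudogene Gm12346, hold 51.5% of its 31-base windows.

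Among the members, Hspe1 of the mitochondrial chaperonin pair had the smallest error. Hspe1 (Entrez gene 15528, chr1:55088132-55091307), the lid, measured 172, 136 and 188 in WT SP and 219, 329 and 242 in Δβ SP. Every Δβ SP library was above every WT SP library, as for 1 of the 10 members and 7.92% of all tested genes. The BM libraries measured 231, 188 and 156 in WT and 158, 222 and 158 in Δβ, and the groups overlapped. Hspe1 was 0.66 ± 0.22 log2 units, or 1.58-fold, higher in Δβ SP (unadjusted p = 0.0134, limma adjusted p = 0.254, 95% interval 0.17 to 1.16), which did not pass the test. The estimate was 0.49 without Δβ SP 2, and the limma adjusted p was 0.0607 without WT SP 3. The BM difference was -0.10 ± 0.22, and the test of whether SP and BM differed in the genotype difference gave 0.76 ± 0.32 with an unadjusted p of 0.0361 and a limma adjusted p of 0.926.

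Hspd1 (Entrez gene 15510, chr1:55077835-55088243), the chamber, measured 1071, 994 and 1496 in WT SP and 1448, 2400 and 1393 in Δβ SP. In BM it measured 1591, 1487 and 1083 in WT and 1020, 1823 and 1449 in Δβ. The SP difference was 0.53 ± 0.27 with a limma adjusted p of 0.369, and 0.28 without Δβ SP 2 (adjusted p of 0.776). Without WT SP 3 it was 0.71 (limma adjusted p of 0.107). The ratio of Hspd1 to Hspe1 per kb stayed between 3.21 in Δβ SP 3 and 5.10 in Δβ BM 3, and the pair had an r of 0.87 over the 12 libraries. The first exons of the pair overlap on opposite strands, and whether counting used strand is not stated in the sources used here, so reads in the overlap cannot be told apart. In addition, 53.1% of the Hspd1 windows and 30.5% of the Hspe1 windows occur in other genes.

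Across the members, no genotype difference passed the test in either organ. In SP, 0 of 10 were called by limma at an adjusted p under 0.05, against 0.105% of all tested genes, 1 of 10 was higher at an unadjusted p under 0.05, against 5.93% of tested genes, and 0 of 10 was lower, against 8.96%. No member was lower without overlap, against 9.37% of tested genes. The estimates were above 0 for 8 of 10 members, all but Hspa5 and Dnajb1, with a median of 0.50 against -0.01 over all tested genes. The median was 0.28 without Δβ SP 2 and WT BM 1. Without WT SP 3, the highest of WT SP for 8 of 10 members, only Dnajb1 (-0.26) stayed below 0, and Hspa1b (2.26) was highest. In BM, limma called 0 of 10 against 0.0697% of tested genes, and 0 of 10 had an unadjusted p under 0.05, against 1.25% of tested genes that were higher and 1.33% that were lower. No member had BM groups that did not overlap, against 3.50% of tested genes for higher and 4.13% for lower. Here 4 of 10 estimates were above 0 with a median of -0.11 against -0.02 over all genes. Without the same 2 libraries, 9 of 10 were above 0 and the median turned to 0.20, so the direction in BM rested on WT BM 1.

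**Figure D2:**
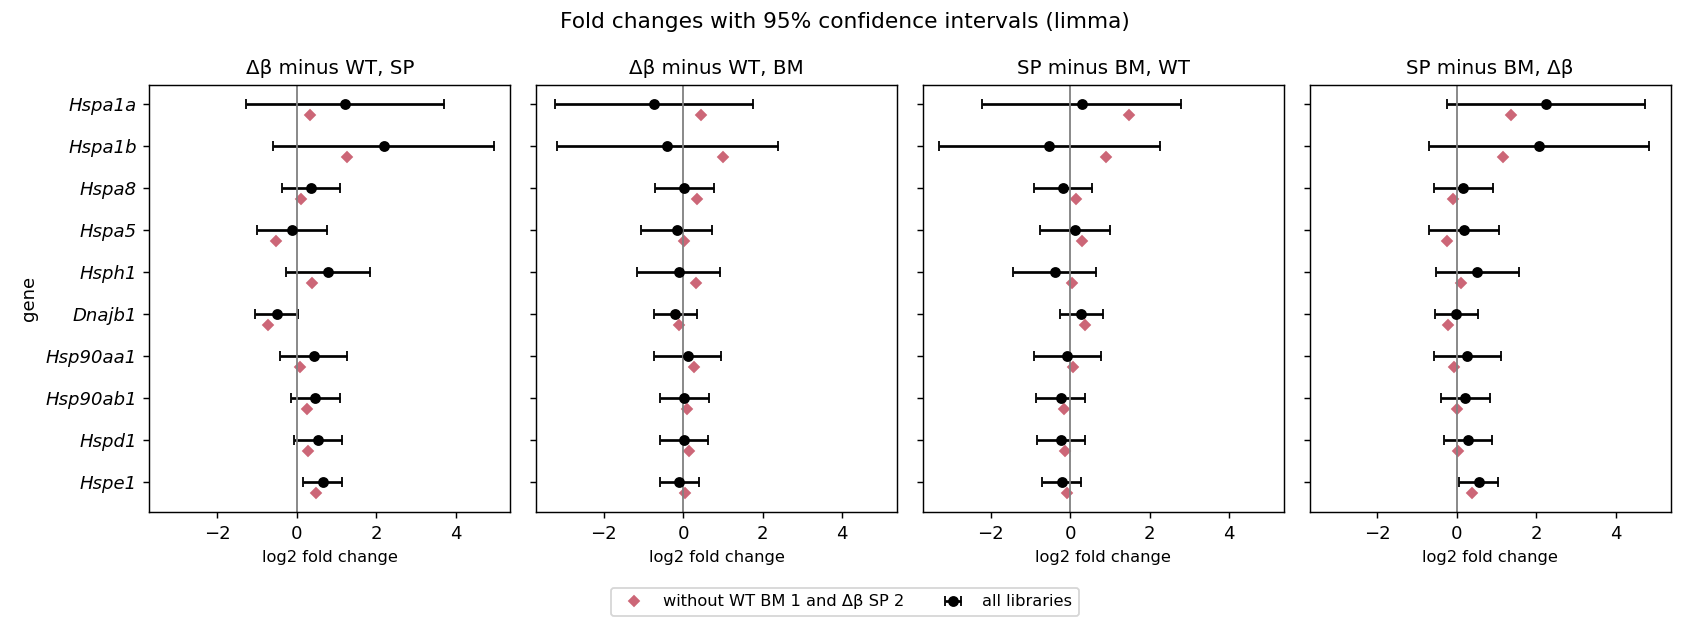
Log2 fold changes of the 10 genes in 4 comparisons, with points for the limma estimates from all 12 libraries, bars for their 95% confidence intervals and diamonds for the estimates without WT BM 1 and Δβ SP 2. The intervals of Hspe1 in SP between genotypes and in Δβ between organs lie above 0 before adjustment, and the 2 Hspa1 genes have the widest intervals.

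Averaging the SP and BM libraries of each number gave 3 values a genotype. No member passed here by limma, against 0.148% of tested genes. At an unadjusted p under 0.05 there were 0 of 10, against 3.41% of tested genes that were higher and 6.50% that were lower. The median over the members was 0.26 against -0.02 over all genes. Dnajb1 had the smallest adjusted p, 0.532 by limma, with an estimate of -0.35 ± 0.16. For the interaction of genotype and organ, limma called 0 of 10 members and 0% of all tested genes. At an unadjusted p under 0.05, 1 of 10 was above 0, which was Hspe1, against 1.25% of tested genes, and 0 of 10 below, against 1.95%. The median interaction over the members was 0.48, and -0.03 without Δβ SP 2 and WT BM 1. That reduced fit kept Δβ BM 2, the same-numbered partner of Δβ SP 2. It therefore does not show the interaction without number 2 in Δβ blasts.

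Between organs the members also stayed below the threshold. In WT blasts, 0 of 10 members and 0% of tested genes were called by limma, and 0 of 10 had an unadjusted p under 0.05, against 4.36% of tested genes higher in SP and 3.91% lower. The organs overlapped for all 10 members in WT, against 5.66% of tested genes that were higher in SP without overlap and 5.80% that were lower. The median difference of SP minus BM was -0.19, which turned to 0.11 without the 2 libraries. In Δβ blasts, limma called 0 of 10 members and 0% of tested genes. The organs again overlapped for all 10, against 2.92% of tested genes that were higher in SP without overlap and 4.51% that were lower. The median was 0.27 with 9 of 10 estimates above 0, and 0.02 with 6 of 10 without Δβ SP 2 and WT BM 1. That reduced fit kept Δβ BM 2, the highest of Δβ BM for 8 of 10 members. It therefore does not show the organ difference without number 2. With all libraries, Hspa1a and Hspa1b had the largest estimates, 2.25 ± 1.13 and 2.08 ± 1.26 log2 units higher in Δβ SP than in Δβ BM, with limma adjusted p of 1 for both. The overall profiles of same-numbered SP and BM libraries deviated together in Δβ, so differences within a number are given as well. For Hspa1a these were 1.34, 2.74 and 2.67 log2 units in Δβ 1 to 3, and for Hspa1b 1.37, 2.51 and 2.34, higher in SP in 3 of 3. Hspe1 differed by 0.47, 0.57 and 0.61. SP was higher in all 3 numbers for 5 of 10 members, also Hsph1 and Hspa5, against 15.7% of tested genes, and lower in all 3 for 0 of 10, against 18.7%. With the number as a block in a fit of the 6 Δβ libraries, chosen after the values were seen, limma called 0 of 10 members and 0% of tested genes. At an unadjusted p under 0.05, 4 of 10 were higher in SP, against 4.24% of tested genes, and 0 of 10 lower, against 6.14%. The 4 were Hspa1a, Hspa1b, Hsph1 and Hspe1, and the Hspa1 copies share sequence, so they do not count as separate members. In that fit the SE was 0.27 for Hspa1a and 0.22 for Hspa1b, both with a limma adjusted p of 0.1445. For Hspe1 it was 0.12 with an adjusted p of 0.304. These SEs are moderated by limma over all tested genes and are not the spread of each gene alone. The SD of the 3 differences was 0.79 for Hspa1a, 0.61 for Hspa1b and 0.07 for Hspe1. The same block in a fit of all 12 libraries, whose numbers did not pair in WT, gave an SE of 0.87 for Hspa1a and 0.19 for Hspe1 and called 0 of 10. Without the block, Hspe1 was 0.55 ± 0.22 higher in Δβ SP with an unadjusted p of 0.0327 and an adjusted p of 1, the 1 member of 10 with an unadjusted p under 0.05 and a higher level in SP, against 0.654% of tested genes. None was lower in SP at that level, against 1.12%. Over both genotypes the organ difference had a median of 0.12 over the members, with 0 of 10 called, against 0% of all tested genes, and 0 of 10 at an unadjusted p under 0.05, against 2.98% of tested genes higher in SP and 2.78% lower. In sorted bulk libraries such as these, fewer cells that express a gene and less RNA per cell cannot be told apart.

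Count models on the recovered reads and a fit without the 2 extreme libraries called no member either. edgeR called 0 of 10 members in each of the 7 comparisons, against 0.0349% of tested genes in SP, 0.0697% in BM, 0.139% over both organs and 0% in the remaining 4. DESeq2 also called 0 of 10 in each, against 3.98% of tested genes in SP, 0.322% in BM and 3.68% over both organs. Its shares between organs were 0.967% in WT, 0.0174% in Δβ and 0.322% over both genotypes, and 0.0261% for the interaction. Without Δβ SP 2 and WT BM 1, limma called 0 of 10 members in each comparison, against 0.0174% of tested genes in SP, 0.0174% in BM, 0.00871% over both organs and 0% in the remaining 4.

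Within the groups, the same libraries held the high values of most members. Δβ SP 2 held the highest of the 12 values for 9 of 10 members, Dnajb1 being the exception, and it was the highest library of its group for 10 of 10. WT BM 1 was likewise the highest of WT BM for 10 of 10, and WT SP 3 and Δβ BM 2 were the highest of their groups for 8 of 10 each. The mean log2 deviation from the group mean over the members was 0.83 in WT BM 1, 0.82 in Δβ SP 2, 0.58 in Δβ BM 2 and 0.35 in WT SP 3. Δβ SP 3 lay lowest, at -0.61, and was below its group mean for all 10 members.

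In Δβ blasts 5 of 10 members ranked the library numbers alike in both organs. Hspa1a, Hspa1b, Hspa8 and Hspa5 had the order 3, 1, 2 from low to high in Δβ SP and again in Δβ BM, and Hspe1 had 1, 3, 2 in both. Hsp90aa1, Hsp90ab1, Hsph1, Hspd1 and Dnajb1 changed order between the organs, and number 2 was highest in both for 8 of 10 members. In WT blasts 0 of 10 kept the order, since WT BM 1 was the highest of its group for 10 of 10 members while WT SP 1 was the lowest of its group for 7 of 10. Whether SP and BM libraries of 1 number came from the same animal is not stated in the sources used here.

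**Figure D3:**
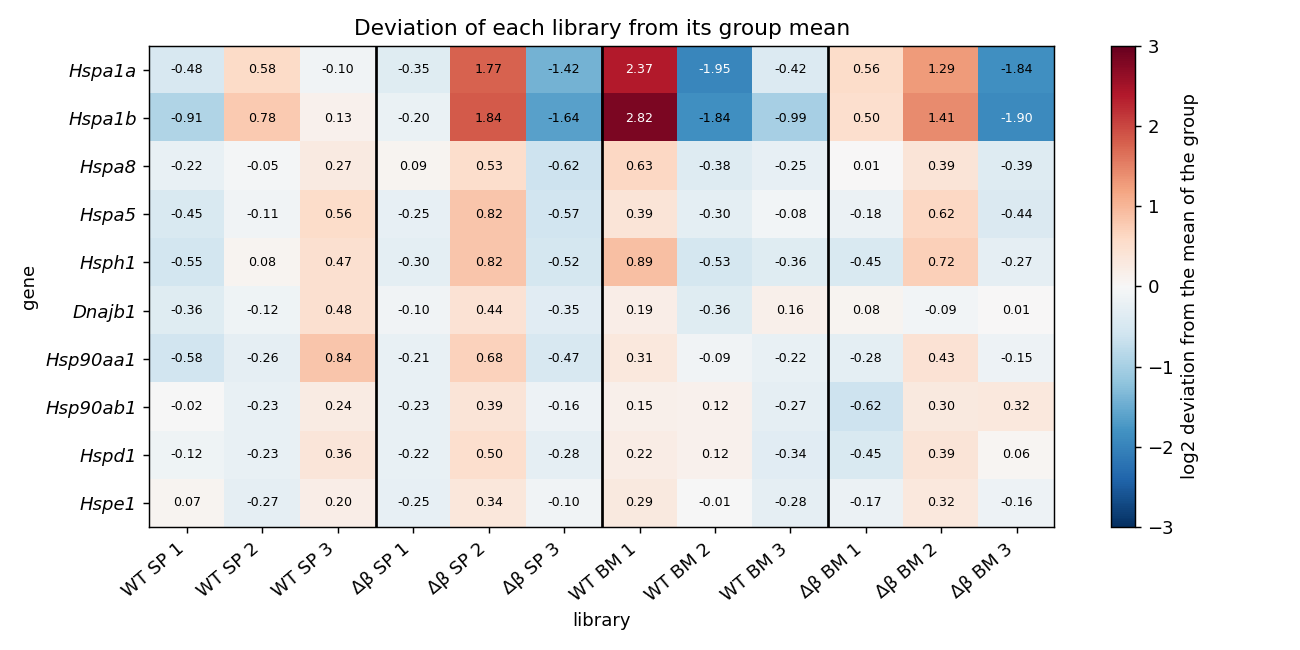
Deviation of each library from the mean of its group on the log2 scale, for the 10 genes (rows) in the 12 libraries (columns), with group boundaries as black lines. Columns Δβ SP 2 and WT BM 1 are above their group mean in every row, up to 2.82 for Hspa1b in WT BM 1.

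This spread was large beside that of other genes for a few members only. The SD within groups was 1.79 log2 units for Hspa1b and 1.61 for Hspa1a, which placed them at percentiles 99.0 and 98.6 of the tested genes, where the median SD was 0.27. Hsph1 followed at 0.67 (percentile 86.0), Hspa5 at 0.55 (81.4), Hsp90aa1 at 0.54 (80.6) and Hspa8 at 0.46 (76.1). Hspd1 at 0.37, Hsp90ab1 at 0.36, Dnajb1 at 0.34 and Hspe1 at 0.28 (percentile 52.6) were near or moderately above the median. The Hspa1 genes had the least precise comparisons, with an SE of 1.26 for Hspa1b against 0.22 for Hspe1.

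**Figure D4:**
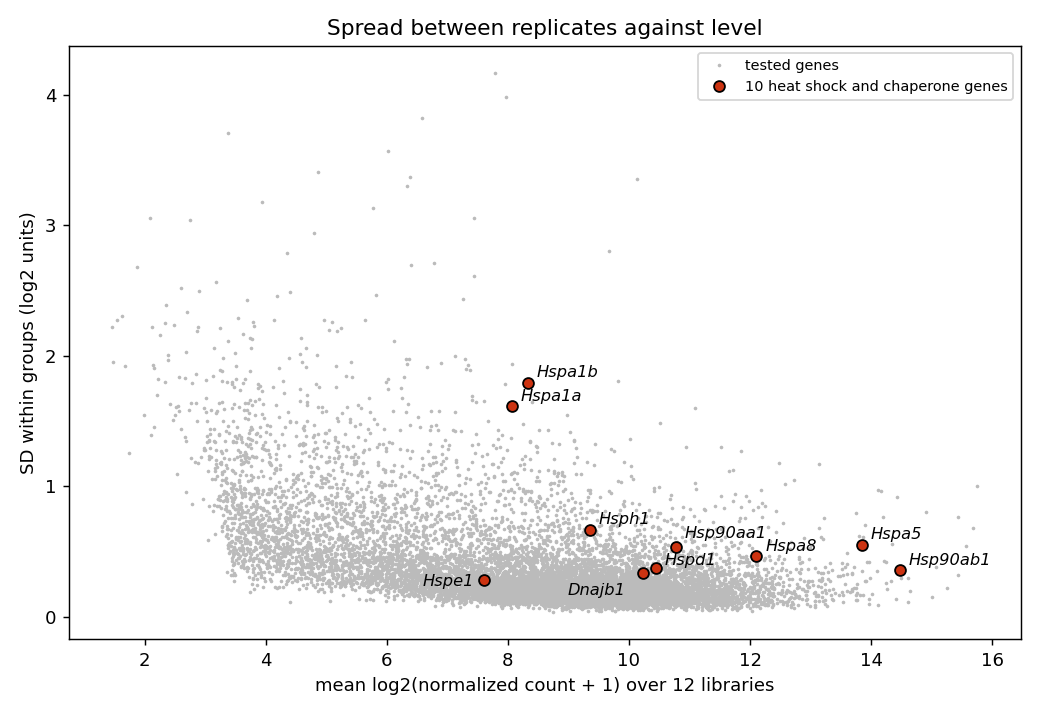
SD of the log2 values within groups against the mean log2(normalized count + 1) over the 12 libraries, for all tested genes (grey) and the 10 heat shock and chaperone genes (red, named). Hspa1a and Hspa1b lie well above the cloud at their level, and Hspe1 lies within it.

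The genes with the most similar profile over the 12 libraries differed by member, and these correlations are descriptions over libraries that share groups and depth. Hspa1b and Hspa8 had Chordc1, an HSP90 cochaperone, among their 3 closest genes (r of 0.89 and 0.93). Hsph1 was closest to Manf, Creld2 and Sdf2l1 (0.97, 0.96 and 0.95), which encode ER proteins of the unfolded protein response. Hsp90ab1 was closest to the nucleolar genes Nolc1, Nop14 and Ncl (0.98, 0.97 and 0.97), and Hspd1 to Pa2g4 and the HSP70 cochaperone St13 (0.97 and 0.96). Hsp90aa1 was closest to Pebp1 (0.97), Hspe1 to Jagn1 (0.95) and Hspa5 to Deb1 (0.90). Dnajb1 was closest to Ubqln1 and to the immediate early gene Jun (0.94 and 0.88). Among the members themselves, Hsp90ab1 and Hspd1 had an r of 0.94, while Dnajb1 had an r of -0.08 with Hspe1 and -0.06 with Hsp90ab1.

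Transcripts of the heat shock factors differed little between the groups. In SP, Hsf1 averaged 536 ± 95.8 in WT and 558 ± 58.3 in Δβ blasts, and in BM 536 ± 67.4 and 535 ± 59.6. The SP difference of 0.07 ± 0.16 had a 95% interval of -0.27 to 0.41. Hsf2, a related factor, averaged 165 ± 44.4, 193 ± 31.4, 187 ± 13.9 and 190 ± 17.9 in the same order. HSF1 is controlled mainly at the protein level, and its activity was not measured.

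Of 115 further chaperone and cochaperone genes in 9 functional groups, 102 were tested, and limma called 0 in SP, 0 in BM and 0 between organs in either genotype. edgeR also called 0 in each of these. DESeq2 called 1 in SP (Fkbp5, lower), against 3.98% of tested genes, and 0 in the others. At an unadjusted p under 0.05 in SP, 6 were higher (5.88%) and 3 lower (2.94%) in Δβ, against 5.93% and 8.96% of all tested genes. The median was 0.20 against -0.01 over all genes, and 0.085 without Δβ SP 2. At the same level 0 were higher and 2 lower (1.96%) in BM, against 1.25% and 1.33% of tested genes. In WT, 1 was higher (0.98%) and 2 lower (1.96%) in SP than in BM, against 4.36% and 3.91%, and in Δβ 1 was higher and 1 lower (0.98% each), against 0.654% and 1.12%. The other HSP90 family and cochaperone genes had a median of 0.34 with 13 of 17 above 0, the ER chaperones and foldases 0.23 with 14 of 19, the TRiC chaperonin and prefoldin 0.24 with 12 of 14, and the J proteins 0.01 with 13 of 25. Without Δβ SP 2 these medians were 0.21, 0.07, 0.13 and -0.07. The remaining HSP70 and HSP110 genes had a median of 0.29 with 8 of 9 above 0, the HSP70 partners 0.20 with 9 of 12, and the mitochondrial chaperones and proteases 0.12 with 8 of 11. Without Δβ SP 2 these were 0.18, 0.15 and 0.08. The exchange factors Grpel2 and Hspbp1 had estimates of 0.46 ± 0.15 and 0.39 ± 0.17 in SP, with limma adjusted p of 0.241 and 0.327. Dnajb9, an ER J protein, had an estimate of -0.65 ± 0.20 in SP with a limma adjusted p of 0.228.

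Over both organs, 1 of the 102 fell in Δβ blasts and 0 rose by limma, against 0.148% of tested genes. edgeR called 0, against 0.139%, and DESeq2 called 1, also Fkbp5, against 3.68%. Fkbp5, an HSP90 cochaperone that is a classical glucocorticoid target, fell by 1.19 log2 units (SE 0.14, limma adjusted p = 0.0399). In SP it measured 5535, 3005 and 1986 in WT against 988, 1214 and 1002 in Δβ blasts. The BM values were 1246, 2335 and 2558 in WT against 872, 1347 and 1206 in Δβ. This call held in 10 of 24 alternative fits and was weakest without WT SP 1 (-0.84, limma adjusted p = 0.718). Ier5, an immediate early gene that binds HSF1, fell by 1.25 (SE 0.13, limma adjusted p = 0.0362). It was read in a list of 17 tested HSF1-linked stress genes, some of which, such as Hspbp1, are also among the 102. Their median in SP was 0.01. At an unadjusted p under 0.05 in SP, 4 were lower (23.5%) and 2 higher (11.8%), against 8.96% and 5.93% of tested genes. Of the 17, limma called 0 and DESeq2 3 in SP (all lower), against 0.105% and 3.98% of tested genes. Over both organs limma called 1, edgeR 1 and DESeq2 2 (both lower), against 0.148%, 0.139% and 3.68%. The Ier5 call held in 14 of 24 alternative fits and was weakest without WT SP 2 (-0.92, limma adjusted p = 0.887). Both calls were also lost without Δβ SP 2 and WT BM 1, at adjusted p of 0.384 and 0.379. Of the small heat shock proteins, 1 of 9 passed the filter on low values, Hspb6, at group means of 81.5 to 105 normalized counts.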

How the data were processed

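RNA of Venus+ blasts from 12 libraries was sequenced by the authors after poly-A enrichment. Per the labels, FastQC, STAR, featureCounts and DESeq2 were used with GRCm38 (mm10), and versions and settings are not given in the sources used here. The unit deposited by the authors is a signal, that is, the reads of a gene over 1 size factor for the whole library. Whole reads were recovered by dividing by the smallest step, with 100% of values within 0.001 of a whole read. In the same table, 6 columns of cells that no label describes were not used.

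Samples were grouped by genotype and organ in their titles. Values were tested as log2(normalized count + 1) with limma 3.58.1 (R 4.3.3, empirical Bayes with trend), in 1 fit of the 4 group means over 11476 genes with a mean of at least 10, with Benjamini-Hochberg adjustment over all of them. Genes with an adjusted p under 0.05 were called. Fold changes are on this log2 scale and understate the change of low genes. For the genotype difference over both organs, SP and BM libraries of 1 number were averaged first, giving 3 against 3. The code was tested on simulated data. Alternatives were edgeR 4.0.16 quasi-likelihood and DESeq2 1.42.0 on recovered reads, pseudocounts of 0.25 and 4, a minimum mean of 50 or none, TMM and quantile scaling, no trend, the 6 libraries concerned alone, a replicate block, each library left out and, chosen after the data were seen, WT BM 1 and Δβ SP 2 left out together, and a replicate block in the 6 Δβ libraries alone.

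The deviations of same-numbered SP and BM libraries from their group means had correlations over genes of 0.66, 0.61 and 0.63 in Δβ and -0.01, -0.04 and -0.24 in WT, so the numbers paired the organs in Δβ blasts. Between genotypes of 1 organ they ranged from -0.17 to 0.20 and did not pair. The labels name no batch. The design names 3 animals per group, so p-values measure the spread between recipient animals, if each library is a separate animal. Given the correlations in Δβ, this condition may fail there. The fit of the group means treated same-numbered SP and BM libraries as independent, in its pooled spread, the organ comparisons and the interaction. The number of separately transduced cultures per group is not stated, so whether genotype p-values cover the spread between cultures is not known.

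Gene positions and exon lengths came from the GENCODE annotation of GRCm38, and upstream sequences from RefSeq (GRCm38.p6). The members are all named. Of the other chaperone lists, called genes or those with the smallest p were eligible to be named, and so were Stat3, Hsf1, Hsf2 and the 3 genes most correlated with each member. Members and lists were chosen with earlier results of these data known. At this depth the lowest member value rested on 35 reads.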

Additional observations from a re-analysis of the deposited data

How the results depend on the processing

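No member was called in any of the 7 comparisons, and none was called in any of the 23 to 25 alternative fits of each, leaving out each library included (0 to 0). Of 1670 member estimates under an alternative, 1564 kept their direction and 106 estimates that were never called changed sign. The replicate block was the number in the genotype comparisons, where it joined WT and Δβ libraries that did not pair. In the organ comparisons and the interaction it was the genotype and number. With the block, 0 members were called in each comparison, and Hspe1 in SP had a limma adjusted p of 0.257. Its adjusted p ranged from 0.0607 to 0.668 over the alternatives, and its estimate from 0.49 to 0.78.

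The number of all genes called depended on the method far more. In SP, 12 genes were called by limma, 4 by edgeR, 457 by DESeq2 and 2 with the replicate block, and leaving out 1 library gave 1 to 1884, the highest without WT SP 3. In BM the count was 8 by limma, 37 by DESeq2 and 5 with the replicate block, and 1 to 13 with 1 library left out. Over both organs it was 17 by limma, 422 by DESeq2, 48 with the 12 libraries as separate units and 55 with the replicate block, and 4 to 56 with 1 library left out. Between organs in WT it was 0 by limma, 111 by DESeq2 and 598 without WT SP 3. With SP and BM libraries of 1 genotype and number as the replicate block, 0 genes were called between organs in Δβ, as by limma without it. The cause of these changes was not tested. TMM and quantile scaling moved the median of all genes by at most 0.058 log2 units.

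The width of the intervals limits what can be said of Hspa1a and Hspa1b. Genes that share sequence with pseudogenes or other genes (Hspa8, Hsp90aa1, Hspd1, Hspe1 and, at 13.2% of its windows, Hsp90ab1) depend on how shared reads were counted, as do the Hspa1 copies.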

Other observations

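The same libraries were highest in the Hspa1a share of the Hspa1 pair and in the level of immediate early genes, a comparison chosen after the values were seen. How reads that match both copies were assigned is not stated, so the share itself is uncertain. The 4 libraries with the highest Hspa1a share, WT SP 1, 2 and 3 and WT BM 3, at 65.1%, 54.6%, 54.1% and 53.9%, were also those with the highest summed immediate early level, at 102319, 93904, 85003 and 74251 normalized counts. These include the whole WT SP group. The 95% Wilson intervals of WT SP 2 (50.9 to 58.3), WT SP 3 (49.6 to 58.6) and WT BM 3 (48.3 to 59.5) overlapped, so the order of these shares is not resolved. In the other 8 libraries the share was 36.5% to 45.1% and the sum 15362 to 47886. The match did not continue among these 8, since Δβ SP 3 had the highest share and the lowest sum of them. The summed level of the pair did not follow, since Δβ SP 2 and WT BM 1 held the most reads of the pair, 4811 and 3157. No cause was tested.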
